A study of Mus musculus with 12 samples.

Results

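The 9 red cell genes measured here build the erythrocyte membrane, carry out the first step of heme synthesis, hydrate carbon dioxide or direct erythroid transcription: Rhag, Slc4a1, Epb42, Ermap, Alas2, Car1, Car2, Klf1 and Gata1. They were read in splenic B cells by every probe set that the array annotation ties to 1 of these symbols alone, 12 probe sets of 45037, or 9 genes of 18193. The genes were chosen by an earlier look at the same arrays, in which several of them read higher in unstimulated transgenic than in unstimulated wild type cells. The values of that contrast, and of every change that reuses those 6 arrays, are therefore given for these genes as a description without a test, and support nothing further. The contrast between the stimulated genotypes compares other arrays and was tested. Its standard errors (SE), intervals and p rest on a spread estimated from all 12 arrays, including those 6.

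RNA came from B cells of mouse spleen, obtained by removing CD43-bearing cells on magnetic beads, with a purity above 98% stated for flow cytometry. The 4 groups were wild type unstimulated (day 0), transgenic unstimulated (genotype EFLmDREAM, day 0), and both genotypes after 2 days in culture with lipopolysaccharide (LPS, 20 µg/ml) and interleukin 4 (IL-4, 10 ng/ml), which together activate B cells. Each group held 3 arrays from independent biological replicates, 12 in all, and each array started from 4 µg of total RNA. The labels name no promoter for the transgene, no founder line, and no age or sex of the mice, and they do not say whether animals were pooled. Cd79a and Cd79b, defining markers of B cells, were bright throughout: their lowest values over the 12 arrays were 10.62 and 11.79 on the log2 scale, against array medians of 5.36 to 6.05. Each RNA is a bulk extract, in which fewer cells of a type and less RNA per cell cannot be told apart.

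Red cells form from erythroid progenitors, which in adult mice live in the marrow and also in the red pulp of the spleen. The factors Gata1 and Klf1 switch on the genes for globin, heme synthesis and the membrane, and the maturing cell then loses its nucleus and enters the blood as a reticulocyte that still holds RNA. Heme is assembled partly in mitochondria from glycine and succinyl-CoA, and erythroid cells use the enzyme Alas2 for the first step where other cells use Alas1. In the membrane, the anion exchanger encoded by Slc4a1 and the Rh complex to which Rhag belongs are tied to the spectrin skeleton through ankyrin and protein 4.2, the product of Epb42. B lineage cells are not known for this programme.

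GATA1 binds DNA at a short GATA core, so the promoters of the members were read for it. RefSeq promoter sequences (build GRCm38.p6) were at hand for 6 of the 9 genes. Slc4a1, Car1 and Car2 were not matched. The letters searched on both strands were AGATAA or AGATAG or TGATAA or TGATAG, 6 bases each, in the 250 bases before the annotated start. Overlapping matches were allowed. Of the 6 promoters 5 held 1 match each, where 26.5% of 32851 promoters of that length held at least 1, and Gata1 had none. All 5 matches lay on the strand opposite to the gene, so they read as their reverse complement below, in capitals. Rhag (chr17:40810899-40811148, plus strand) had its match 31 to 26 bases before the start, Alas2 (chrX:150547167-150547416, plus strand) 86 to 81 bases and Klf1 (chr8:84901732-84901981, plus strand) 80 to 75 bases before it. These are shown as examples of genes that were separate between the unstimulated genotypes, the contrast that chose the members. Epb42 (chr2:121036878-121037127, minus strand), with its match 226 to 221 bases before the start, is shown because it has the same letters as Alas2 and the smallest difference. The fifth, Ermap (chr4:119189996-119190245, minus strand), was also separate and had its match 67 to 62 bases before the start. Its letters are not shown. A match says only that these letters are there.
Rhag: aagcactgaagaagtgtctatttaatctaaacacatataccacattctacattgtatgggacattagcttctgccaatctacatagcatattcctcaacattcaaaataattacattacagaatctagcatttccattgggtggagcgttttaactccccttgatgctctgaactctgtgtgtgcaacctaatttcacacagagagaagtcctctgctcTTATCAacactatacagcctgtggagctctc
Alas2: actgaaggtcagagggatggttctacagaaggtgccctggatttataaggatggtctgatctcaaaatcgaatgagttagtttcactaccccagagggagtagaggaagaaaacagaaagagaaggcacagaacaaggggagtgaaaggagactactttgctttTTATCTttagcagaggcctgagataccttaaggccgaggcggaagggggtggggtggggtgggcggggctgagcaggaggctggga
Klf1: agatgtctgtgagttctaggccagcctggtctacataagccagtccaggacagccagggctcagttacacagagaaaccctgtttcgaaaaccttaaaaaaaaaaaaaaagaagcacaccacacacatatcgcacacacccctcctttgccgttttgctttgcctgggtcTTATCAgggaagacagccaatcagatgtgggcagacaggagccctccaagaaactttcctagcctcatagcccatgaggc
Epb42: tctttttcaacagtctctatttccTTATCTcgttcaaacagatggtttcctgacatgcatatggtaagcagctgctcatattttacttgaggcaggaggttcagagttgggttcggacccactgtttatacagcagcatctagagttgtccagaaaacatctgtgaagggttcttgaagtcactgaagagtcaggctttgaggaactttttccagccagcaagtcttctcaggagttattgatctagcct

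Among the membrane genes, Rhag, an ammonium channel of the Rh complex, read 3.87, 3.83 and 4.44 (log2 level, replicates 1 to 3) in wild type unstimulated cells and 6.32, 6.10 and 7.12 in transgenic unstimulated cells. The groups did not overlap, and the lowest transgenic array was above the highest wild type one; the difference was 2.47 ± 0.22 (limma SE, n = 3 arrays a group). No fold is given, because Rhag lay below the lower quartile of all 3 wild type arrays and the table has no detection calls. In stimulated cells Rhag lay between 3.09 and 3.29 in all 6 arrays, below the lower quartile of each.

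Slc4a1, the band 3 anion exchanger that trades chloride for bicarbonate, has 3 probe sets. At the brightest (1434502_x_at) it read 6.44, 6.96 and 7.72 in unstimulated wild type and 8.71, 9.08 and 9.50 in unstimulated transgenic cells, a difference of 2.06 ± 0.26 (4.16-fold). A further probe set (1416464_at) read 6.27, 6.49 and 7.96 against 8.87, 9.51 and 9.93, a difference of 2.53 ± 0.35, and the groups were separate at both. The remaining one (1431743_a_at) disagreed with them: it read 5.86, 5.71 and 5.64 in wild type and 5.77, 5.83 and 5.99 in transgenic cells, so the groups overlapped and differed by 0.13 ± 0.088. Which transcript each probe set reads was not tested.

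Epb42, protein 4.2 of the membrane skeleton, differed least of the 9. Its brighter probe set read 5.65, 5.70 and 5.86 in unstimulated wild type and 5.83, 5.96 and 6.09 in unstimulated transgenic cells, overlapping groups with a difference of 0.22 ± 0.091. Its other probe set (1417337_at) lay in the dimmest 25% of all 12 arrays, at 3.64 to 3.78 in wild type and 3.78 to 4.03 in transgenic cells, a difference of 0.18 ± 0.084. Ermap, an erythroid adhesion protein that carries the Scianna blood group, read 7.01, 6.92 and 6.94 in unstimulated wild type and 7.83, 7.55 and 8.14 in unstimulated transgenic cells. Those groups were separate, by 0.88 ± 0.12, and the wild type arrays spanned far less than the transgenic ones.

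Alas2, the erythroid enzyme that starts heme synthesis, read 6.45, 6.25 and 7.37 in unstimulated wild type and 8.69, 8.89 and 9.03 in unstimulated transgenic cells. It was 2.18 ± 0.22 higher in the transgenic group (4.53-fold), with no overlap and with wild type replicate 3 well above the other wild type arrays. The carbonic anhydrases, which interconvert carbon dioxide and bicarbonate, are abundant red cell enzymes, and Car2 is also made by other cells. Car1 read 6.45, 6.43 and 6.25 against 8.06, 7.78 and 8.47, a difference of 1.73 ± 0.14 (3.31-fold). Car2 read 8.04, 7.97 and 8.41 against 9.92, 9.95 and 10.43, a difference of 1.96 ± 0.15 (3.89-fold). Both were separate between the genotypes, and Car1 was the member whose wild type replicate 3 was the lowest of its group at the gene's only probe set.

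Of the regulators, Klf1, the Krüppel-like factor that activates adult globin and membrane genes, read 5.94, 6.25 and 6.69 in unstimulated wild type and 7.85, 7.78 and 8.26 in unstimulated transgenic cells, a difference of 1.67 ± 0.17 (3.18-fold). Gata1, which erythroid cells share with megakaryocytes, mast cells and eosinophils, read 5.86, 6.36 and 6.78 against 6.98, 7.06 and 7.40, a difference of 0.81 ± 0.19 (1.76-fold). Both genes were separate. For Gata1, however, the gap between the highest wild type and the lowest transgenic array was narrower than the spread inside the wild type group. The same held at the Slc4a1 probe sets 1434502_x_at and 1416464_at. Over the 9 genes the log2 difference ran from 0.22 to 2.47, the latter over the dim wild type values of Rhag, with a median of 1.73, where all 18193 genes had a median of 0.013. At 9 of the 12 probe sets the transgenic arrays lay entirely above the wild type ones, against 11.8% of all probe sets, a share from which nothing is read because this contrast chose the genes. Without transgenic replicate 3 the median was 1.54, and without wild type replicate 1, described below, it was 1.76.

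**Figure D1:**
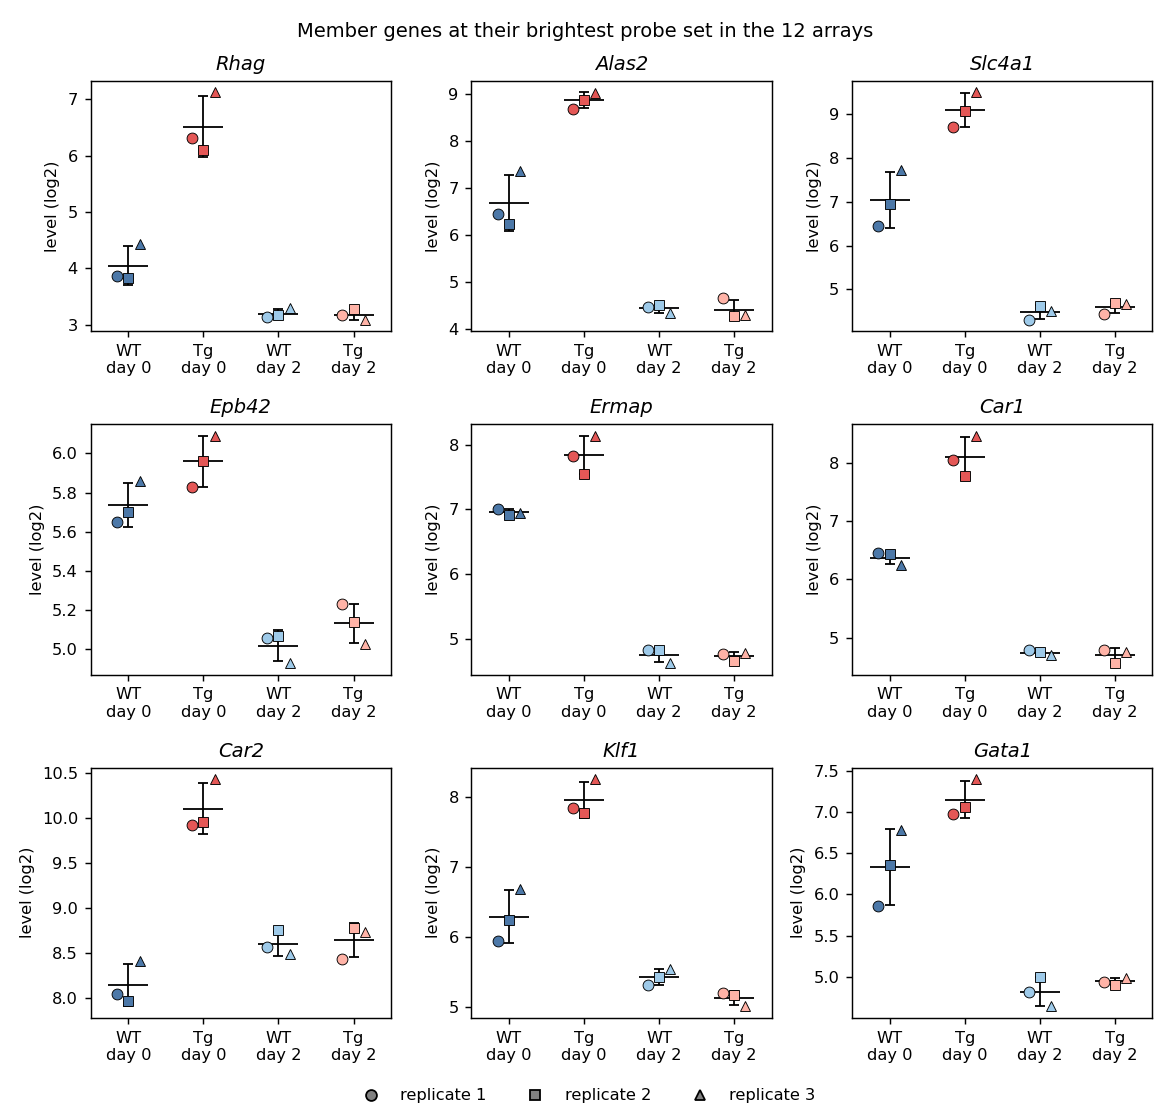
Log2 level of the 9 genes at their brightest probe set in wild type (WT) and transgenic (Tg) cells, day 0 unstimulated and day 2 with LPS and IL-4. Symbols are single arrays (circle, square and triangle for replicates 1, 2 and 3), horizontal bars the mean and whiskers the SD of 3 arrays; each panel has its own vertical scale. The transgenic day 0 arrays stand above the other groups for 8 genes, and at Epb42 they overlap wild type day 0; the day 2 groups lie at similar levels.

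Within the unstimulated groups the members tended to be high in the same array. In transgenic unstimulated cells replicate 3 was the highest of the 3 arrays at 12 of 12 member probe sets, where it was the highest at 33.5% of all probe sets. Its members lay on average 0.32 above the group mean over the 9 genes, and replicates 1 and 2 lay 0.16 below it each (deviations of −0.16 and −0.16). The excess of replicate 3 over the mean of the other transgenic arrays was 0.91 for Rhag, 0.74 for Slc4a1 at 1416464_at and 0.24 for Alas2. In wild type unstimulated cells replicate 3 was the highest at 9 of 12 probe sets, against 35.3% of all probe sets, again with a mean deviation of 0.32 over the 9 genes. Some marker lists of other cells also had wild type replicate 3 highest, as given below. Car1, Ermap and Slc4a1 at 1431743_a_at were the exceptions, each highest in wild type replicate 1. The excess of wild type replicate 3 was 1.58 for Slc4a1 at 1416464_at, 1.02 for Alas2 and 0.59 for Rhag, so different members led it in the 2 genotypes.

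The same array order was not seen in stimulated cells. In stimulated wild type cells replicates 1, 2 and 3 were the highest at 2, 6 and 2 of the 12 probe sets, with ties at the rest, and in stimulated transgenic cells at 4, 5 and 3. The mean deviations over the 9 genes stayed between −0.046 and 0.071 there. Replicate 3 of every group also differed in the Y-linked gene Eif2s3y, at 3.33 to 3.78 against 8.27 to 9.55 in the other arrays. Its part in the array order of the members was not tested. Wild type unstimulated replicate 1 stood apart in the actin control probe sets, 5′ minus 3′ end, at −2.22 against −0.67 to −0.54 in the other unstimulated arrays. The stimulated arrays ran from −1.36, in wild type replicate 1, to −0.43.

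Markers of other blood cells moved with the unstimulated genotype difference as well. Of 12 measured granulocyte markers 11 were higher in unstimulated transgenic cells and 0 were lower, and of 14 macrophage markers 13 and 0, by limma's moderated test at an adjusted p under 0.05. The mean level of the granulocyte list was 6.16 to 6.35 in wild type and 8.87 to 9.29 in transgenic arrays, and that of the macrophage list 6.49 to 6.73 and 7.94 to 8.18. Of their defining markers, S100a8, a neutrophil calcium-binding protein, had means of 7.41 in wild type and 12.03 in transgenic cells, and C1qa, a complement chain of macrophages, of 5.22 and 7.80. In the other lists, 4 of 10 mast cell, basophil and eosinophil markers, 3 of 11 T and NK cell markers, 1 of 8 platelet markers and 0 of 7 blood progenitor markers were higher, and none was lower. The mean level of the mast cell, basophil and eosinophil list was 5.10 to 5.17 in wild type and 5.64 to 6.10 in transgenic arrays, while its defining markers Cpa3, Mcpt8 and Ms4a2 differed by −0.097, 0.28 and 0.24, none of them called, and lay below the array median throughout. The called genes of that list were the eosinophil markers Prg2 (2.14 ± 0.28), Epx (1.47 ± 0.16) and Ccr3 (1.22 ± 0.22), with limma adjusted p of 0.000405, 9.2e-05 and 0.00369, and Hdc (0.72 ± 0.090), the histamine enzyme, named after their values were seen. Like the members, these 4 were highest in transgenic replicate 3, where Prg2 read 7.53, 8.51 and 8.85 over replicates 1 to 3. Of 9 B cell markers 1 was higher and 1 lower. These lists varied over the transgenic arrays in their own ways: granulocyte markers were highest in replicate 2 at 7 of 12, macrophage markers in replicate 3 at 9 of 14, and mast cell, basophil and eosinophil markers in replicate 3 at 7 of 10. In unstimulated wild type, replicate 3 was highest at 7 of 9 B cell, 7 of 8 platelet and 6 of 11 T and NK cell markers. It was highest at 2 of 12 granulocyte, 2 of 14 macrophage, 4 of 10 mast cell, basophil and eosinophil and 3 of 7 progenitor markers. The part of other cells' RNA in the members' values was not tested.

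**Figure D2:**
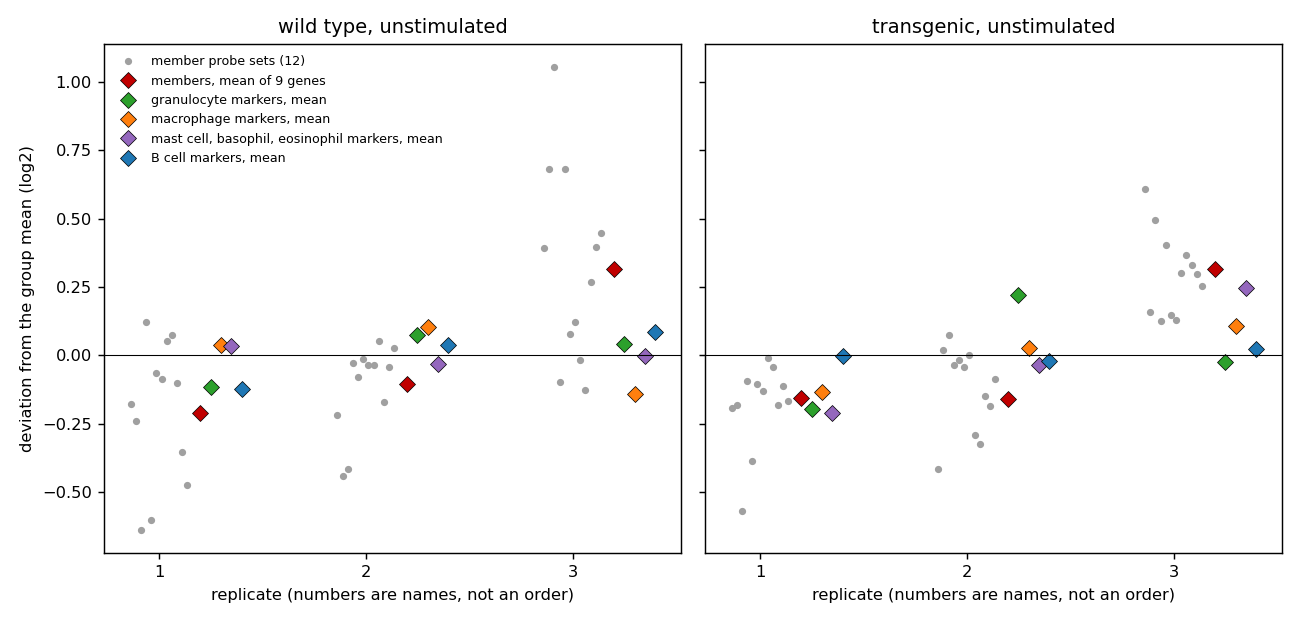
Deviation of each unstimulated array from the mean of its group (log2) in wild type (left) and transgenic cells (right), by replicate. Grey points are the 12 member probe sets and diamonds the mean of the 9 member genes or of a marker list. In transgenic cells all 12 member points of replicate 3 lie above 0, where the granulocyte mean is −0.023. In wild type cells the member mean of replicate 3 is 0.32, the B cell mean 0.086 and the macrophage mean −0.14.

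Other genes of the red cell programme, taken from lists written by role, were then compared between the unstimulated genotypes. These are the arrays that chose the members, and the lists were written with earlier results of these data known. The counts are therefore no independent support for the members' difference. Of 83 listed genes 70 had a probe set of their own, and the other 13 were not analysed here. Of the 70, 25 were higher in transgenic cells and 2 were lower by limma's test (adjusted p under 0.05 over all probe sets), against 5.45% of all genes higher and 4.9% lower. The median difference was 0.15 over the 70 genes. The count called was 21 without transgenic replicate 3, 20 without wild type replicate 1 and 35 without wild type replicate 3, of which 7 were lower. Calls over all probe sets moved too, from 4256 in the main fit to 2174, 2965 and 7518 in the same order. A fit of these 6 arrays alone called 18, and 1908 over all probe sets.

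Of 19 measured membrane and skeleton genes 9 were higher and 0 lower. Aqp1, the water channel of the red cell membrane, was higher by 2.06 ± 0.15 (4.17-fold, adjusted p = 3.64e-06), and Stom, stomatin, by 1.10 ± 0.10 (adjusted p = 3.09e-05). Stom was called at 3 of its 6 probe sets. Cldn13, a claudin of mouse erythroid cells, was higher by 1.37 ± 0.19, and Kel, the Kell blood group protease, by 1.12 ± 0.19. As with the members, transgenic replicate 3 was often the highest array of its group, at 14 of these 19 genes. Of 14 measured erythroid regulators 6 were higher and 0 lower. Hemgn, hemogen, was higher by 2.13 ± 0.24 (4.37-fold, adjusted p = 0.000136), Nfe2, the globin activator, by 1.22 ± 0.14, Tal1, a partner of Gata1 in DNA-binding complexes, by 1.05 ± 0.16, and Trim10 by 0.85 ± 0.11. Of 10 genes of red cell maturation and antioxidant defence 5 were higher and 0 lower, among them Bpgm, which makes the hemoglobin regulator 2,3-bisphosphoglycerate (0.97 ± 0.11), Mgst3 (0.77 ± 0.13) and Gclm (0.68 ± 0.12). The other probe set differed by 0.06 for Mgst3 and by 0.37 for Gclm, neither of them called. Prdx2, the red cell peroxiredoxin, rose above wild type by 0.82 ± 0.11 at the brightest of its probe sets, where its other probe set differed by −0.50 (limma adjusted p = 0.0171) and their average (0.16) was not called.

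Of 13 measured genes of heme synthesis and transport other than Alas2, 4 were higher and 1 lower. Fech, which inserts iron into the ring in the last step, was higher by 0.89 ± 0.093 (adjusted p = 8.02e-05), Slc25a39, a mitochondrial carrier, by 0.58 ± 0.096 and Cpox, an enzyme of the later steps, by 0.67 ± 0.13. Fech was called at 2 of its 4 probe sets and Slc25a39 at 3 of its 5. The mean of all Cpox probe sets differed by 0.19 and was not called. The fourth, named after its values were seen, was Alas1, the enzyme of the first step outside red cells, higher by 0.54 ± 0.092. Its other probe set differed by 0.19 and was not called. Flvcr1, a heme exporter, differed by −0.60 ± 0.16 (adjusted p = 0.0336), a call lost without wild type replicate 1 or 2 or transgenic replicate 1 or 3. Of 8 iron genes Tfr2 was higher (0.50 ± 0.12) and Tfrc, the transferrin receptor, lower (−0.44 ± 0.11). The Tfr2 call was lost without wild type replicate 1 or transgenic replicate 1 or 3. The Tfrc call was lost without wild type replicate 1 or 2 or transgenic replicate 1 or 2, and the mean of its probe sets turned to 0.18. Of 6 globin genes with a probe set of their own 0 were called in either direction at the brightest probe set, with a median of 0.068. They were Hba-a1, Hba-a2, Hba-x, Hbb-b2, Hbb-bh1 and Hbb-y, a mix of adult and embryonic globins. Among these 6, 4 lay below the median of every unstimulated wild type array, where a difference would be harder to see. A dimmer probe set of Hbb-b2, an adult beta globin, was called higher by 0.93 (limma adjusted p = 0.00161) where its brightest read 0.33. The listed chaperone was not analysed here. Probe sets that carry several globin symbols were not used.

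**Figure D3:**
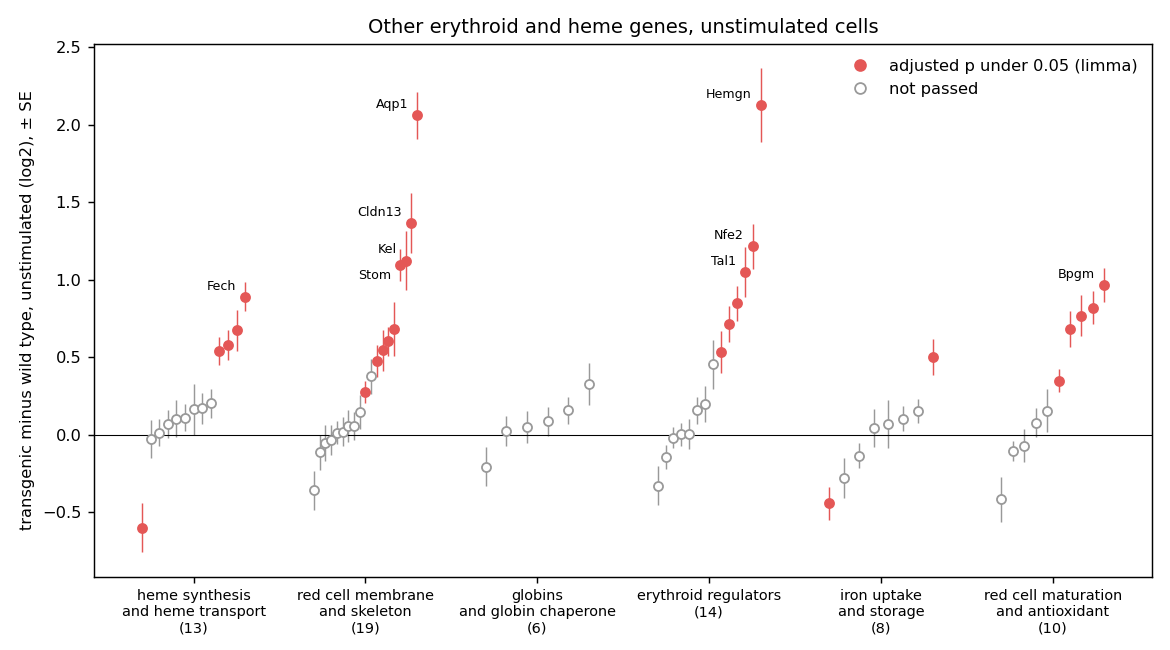
Transgenic minus wild type difference (log2) in unstimulated cells for 70 further erythroid and heme genes, in 6 groups by role with the number measured in brackets; points are the brightest probe set of a gene with its SE, from 3 arrays a group. Filled points passed limma's test at an adjusted p under 0.05: 9 of 19 membrane genes and 6 of 14 regulators are filled and above 0, and 0 of 6 globin genes. Among the 6 globin genes, a mix of adult and embryonic forms, 4 lay below the median of every unstimulated wild type array.

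The stimulated genotypes were compared to see whether the members still differed 2 days after activation. None of the 12 probe sets passed limma's test, with adjusted p from 0.576 to 0.992, where 1.86% of all probe sets passed, and 0 of the 12 had an unadjusted p under 0.05. The spread behind these p also came from the unstimulated arrays, and a fit of the 6 stimulated arrays alone likewise called none. The median difference over the 9 genes was −0.017, with 4 genes above and 5 below 0, and the median of all genes was 0. Alas2 read 4.47, 4.53 and 4.34 in stimulated wild type and 4.67, 4.28 and 4.31 in stimulated transgenic cells, overlapping groups with a difference of −0.027 ± 0.22 (limma adjusted p = 0.988). Its 95% interval ran from −0.51 to 0.46.

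The remaining members likewise did not pass. Slc4a1 at its brightest probe set read 4.30, 4.61 and 4.51 against 4.43, 4.68 and 4.67 (0.12 ± 0.26, interval −0.45 to 0.69). Car2 read 8.56, 8.75 and 8.49 against 8.43, 8.78 and 8.73 (0.047 ± 0.15, interval −0.29 to 0.38). Gata1 read 4.82, 5.00 and 4.64 against 4.94, 4.90 and 4.99 (0.12 ± 0.19, interval −0.28 to 0.53). In all 3 genes the arrays of the genotypes were interleaved. Klf1 read 5.32, 5.43 and 5.55 in stimulated wild type and 5.20, 5.18 and 5.01 in stimulated transgenic cells. It was the 1 member probe set of 12 whose groups did not overlap, against 19% of all probe sets, and its difference of −0.30 ± 0.17 did not pass (limma adjusted p = 0.576, interval −0.67 to 0.060). At Rhag, Car1, Ermap and Epb42 the difference was −0.017, −0.047, −0.023 and 0.11 at the brightest probe set, with every stimulated range overlapping. Of the 12 probe sets 10 lay below the median of every stimulated array, and 2 were in the dimmest 25% of each, where a difference between genotypes would be harder to see; Car2 alone stayed above the median in all 6.

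**Figure D4:**
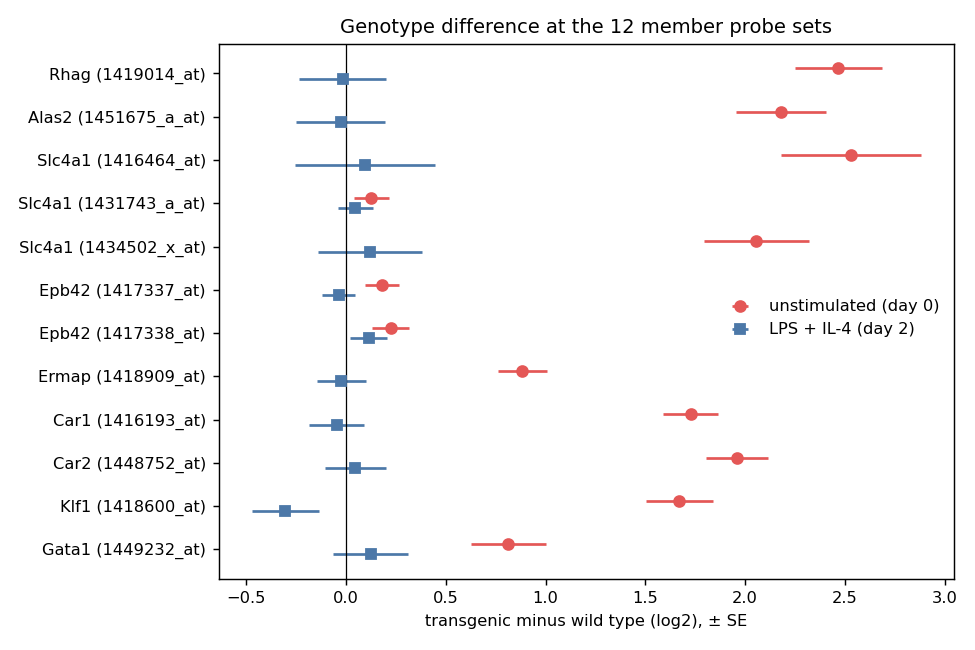
Transgenic minus wild type difference (log2, ± SE from limma, 3 arrays a group) at the 12 member probe sets, in unstimulated (circles) and stimulated cells (squares). Unstimulated differences reach 2.53 and stay near 0.13 to 0.22 at 1 Slc4a1 and both Epb42 probe sets, while all stimulated differences lie between −0.30 and 0.12.

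Among the other erythroid and heme genes 1 was higher and 3 were lower in stimulated transgenic cells at the brightest probe set. Of all genes 1.24% were higher and 1.1% lower. Hbb-bh1, an embryonic globin, differed by 0.45 ± 0.097 (limma adjusted p = 0.0327), Alad, the second enzyme of heme synthesis, by −0.74 ± 0.16 (0.0375), Zfpm1, the Gata1 cofactor FOG1, by −0.73 ± 0.16 (0.0353) and Slc25a37, mitoferrin, by −0.35 ± 0.082 (0.0481). All 4 calls were lost after quantile normalization of the 12 arrays, and with all probe sets of a gene averaged 6 were made, 1 higher and 5 lower. With any single stimulated array left out at most 1 was made, and that of Slc25a37 was lost with the replicate number as a block (adjusted p = 0.0717), a fit with 3 calls in all. Other probe sets of Alad (−0.21), Zfpm1 (−0.14) and Hbb-bh1 (0.43 and 0.20) were not called in the main fit. A dimmer probe set of Prdx2 differed by −1.03 (limma adjusted p = 0.000308), where its brightest read −0.05 and was not called. In the same stimulated arrays 3 granulocyte and 3 macrophage markers were higher in transgenic cells.

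Stimulation was described within each genotype on values that were quantile-normalized over the 12 arrays, because the deposited stimulated arrays had lower medians. In transgenic cells all 9 members were lower at day 2, with a median change of −2.64 against 0.083 over all genes. Slc4a1 changed most, by −4.25 at its brightest probe set, followed by Alas2 (−4.18), Car1 (−2.98), Rhag (−2.92), Ermap (−2.64) and Klf1 (−2.36), with Epb42 at −0.19. In wild type cells 8 of the 9 were lower, with a median of −0.92 against 0.080 over all genes: Slc4a1 changed by −2.04, Alas2 by −1.70, Ermap by −1.62, Car1 by −1.04, Gata1 by −0.92 and Rhag by −0.55. Klf1 (−0.26 ± 0.18, SE) and Epb42 (−0.10 ± 0.087) changed least there. The Slc4a1 probe set 1431743_a_at changed by only −0.20 in wild type and −0.27 in transgenic cells. Car2 was the exception, 0.68 higher in stimulated than in unstimulated wild type cells and 1.49 lower in transgenic cells (a change of −1.49). On the deposited values, where all genes shifted by −0.36 in each genotype, the medians of the members were −1.51 in wild type and −3.11 in transgenic cells.

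Other genes of heme and iron metabolism were tested on the same quantile-normalized values. In wild type cells 9 of 13 genes of heme synthesis and transport rose with stimulation and 2 fell, and in transgenic cells 6 rose and 3 fell. On the deposited values 8 rose and 3 fell in wild type and 6 rose and 4 fell in transgenic cells, and with array medians subtracted 11 rose and 1 fell, and 10 rose and 2 fell. Cpox rose by 3.84 ± 0.14 in wild type (limma adjusted p = 1.18e-10) and by 3.29 ± 0.14 in transgenic cells, and Alas1 by 1.5 and 0.96. Abcb6, a porphyrin transporter, rose by 1.63 and 1.69, and Flvcr1 by 1.28 and 1.87, while Ppox, the enzyme after Cpox, changed by −0.92 and −1.23, a fall in both. Of the iron genes, Tfrc rose by 1.32 in wild type and by 1.69 in transgenic cells, and Slc25a37 changed by −2.29 and −2.47. Of the 19 membrane genes 3 rose and 7 fell in wild type cells and 4 rose and 11 fell in transgenic cells, and of the 14 regulators 3 rose and 8 fell in wild type cells and 0 rose and 12 fell in transgenic cells. These counts depend on the scale: on the deposited values 1 membrane gene rose and 16 fell in wild type cells and 1 rose and 17 fell in transgenic cells, and with array medians subtracted 4 rose and 4 fell, and 5 rose and 10 fell. Of the regulators 0 rose and 10 fell in wild type and 0 rose and 13 fell in transgenic cells on the deposited values, and 6 rose and 4 fell, and 3 rose and 7 fell, with array medians subtracted. Aqp1 changed by −0.91 and −2.94, and Nfe2 by −1.57 and −2.76. Gypc, glycophorin C, rose by 1.99 and 1.26. Over all 70 genes 25 rose and 27 fell in wild type cells, against 36% and 24% of all genes, and 18 rose and 39 fell in transgenic cells, against 35.2% and 23.3%. On the deposited values 15 rose and 44 fell in wild type cells, against 19.1% and 60.3% of all genes, and 13 rose and 49 fell in transgenic cells, against 18.6% and 60.9%. With array medians subtracted 32 rose and 16 fell, against 51.5% and 16.2%, and 28 rose and 30 fell, against 52.8% and 15%. The genotype difference itself changed with stimulation for 14 of the 70 genes, downward in each, by the interaction in limma, against 1.98% of all genes in either direction. The markers of other cells moved with it: 10 of 12 granulocyte markers (median −2.50) and 7 of 14 macrophage markers (median −0.83) had the same downward interaction, and 1 macrophage marker the opposite one, and their part in it was not tested.

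**Figure D5:**
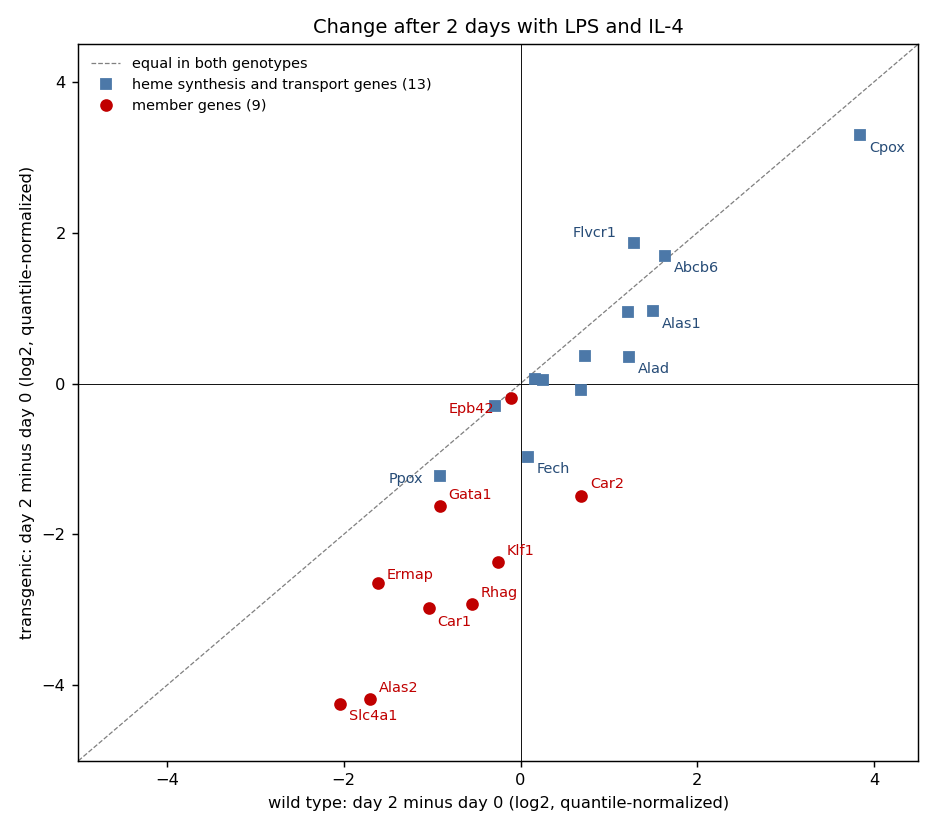
Change from day 0 to day 2 with LPS and IL-4 (log2, quantile-normalized values) in wild type cells (horizontal) against transgenic cells (vertical), each point a gene at its brightest probe set. All 9 members lie below the dashed line of equal change, down to −4.25 for Slc4a1, and the heme genes run up to 3.84 in wild type for Cpox; both axes use unstimulated arrays of the contrast that chose the members.

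The genes whose levels over the 12 arrays lay closest to the mean profile of the 9 members were sought among 10038 other genes with a mean level of at least 6, by the root mean square distance between centred log2 values. The nearest were Cst3 (distance 0.207), Hacd4 (0.226), Adam8 (0.229), Ackr2 (0.240), Igha (0.243) and Ptpn14 (0.250), followed by Alox15, Pilrb1, Id2 and Zyx (0.286 to 0.325), where the median candidate was at 1.12. None of these 10 was in a red cell list or a marker list used here. Listed genes with a mean level under 6, such as Aqp1 (5.42), were not candidates. The search therefore does not say whether such dimmer genes lay as close. Cst3, the secreted protease inhibitor cystatin C, had means of 10.84 ± 0.28 in unstimulated wild type and 11.99 ± 0.076 in unstimulated transgenic cells and of 9.13 ± 0.15 and 9.42 ± 0.098 after stimulation (SD, n = 3). Igha, the constant region of IgA, had means of 9.32 ± 0.081, 10.66 ± 0.13, 7.48 ± 0.18 and 7.85 ± 0.19 in the same order. Of the members themselves Klf1 was closest to the mean profile, at 0.20, and Epb42 and Car2 were farthest, at 0.832 each.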

How the data were processed

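RNA of 12 samples was hybridised to single-colour Affymetrix Mouse Genome arrays. The authors deposited log2 summaries per probe set, with 2 decimals. They came from RMA in affy, without versions, per the submitters' processing notes. No source used here says whether both states were normalized together. There are no detection calls, and precision is limited by how many arrays there are. Of 45101 probe sets 64 controls were left out. An array annotation gave 34945 probe sets a single symbol, 932 several and 9160 none, and 34741 of the first were matched to RefSeq by Entrez identifier. A gene was represented by its brightest probe set, averaged across arrays.

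A linear model with a coefficient for each of the 4 groups was fitted to the 12 arrays (limma 3.58.1, R 4.3.3), with a constant prior and 2-sided tests. There were 8 residual and 4.71 prior degrees of freedom. The p-values were adjusted by Benjamini and Hochberg over 45037 probe sets, with a call at 0.05. Changes between the states were taken after quantile normalization over the 12 arrays, and the tests of the lists between the states, with their splits on other scales, were added after the data were seen. The procedure was tested on simulated data. Alternatives were quantile normalization, median subtraction, a filter at a mean of 5, all probe sets of a gene averaged, a trended robust prior, only the arrays compared, each array left out and the replicate number as a block.

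The members and the lists were chosen with earlier results of these data known. Named are all members, up to 4 called genes with the largest difference per list and contrast, and the 10 genes nearest to the members' mean profile among genes with a mean of at least 6. Genes read by no probe set that is theirs alone were not analysed here.

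The labels number the replicates 1 to 3 in each group. Deviations from the group means of arrays with the same number correlated at 0.101 to 0.330 between the stimulated genotypes and at 0.175 to 0.318 between the wild type states, so these count as paired by the rule that every pair exceeds 0.1. Between the unstimulated genotypes (0.0701 to 0.297) and the transgenic states (−0.160 to 0.115) they do not. The pairing comes from the data alone, as the labels name no shared animal or day. With the replicate block, 28 of 70 further genes were called in unstimulated and 3 in stimulated cells. Over all probe sets it called 4966 and 1000, against 4256 and 839 without it.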

Additional observations from a re-analysis of the deposited data

Results flagged for a closer look

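For 12 of the 70 further erythroid and heme genes that were named for a call in some contrast, the transgenic minus wild type difference itself changed between the states (interaction in limma, adjusted p under 0.05), and each difference was smaller or more negative in stimulated cells. Over all 70 genes 14 passed in this direction and 0 in the other, against 1.98% of all genes in either direction. The same downward change was called for 10 of 12 granulocyte markers (median −2.50) and 7 of 14 macrophage markers (median −0.83), and its relation to that of the 14 genes was not tested. The unstimulated arrays enter both this test and the contrasts in which these genes were named.

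The change of the difference was −2.38 ± 0.34 (SE) for Hemgn, −1.14 ± 0.20 for Nfe2, −1.18 ± 0.23 for Zfpm1 and −1.01 ± 0.16 for Trim10, all regulators, with limma adjusted p from 0.00333 to 0.0205. Among membrane genes it was −1.96 ± 0.22 for Aqp1, −1.42 ± 0.27 for Cldn13 and −1.06 ± 0.15 for Stom (adjusted p 0.000578, 0.0216 and 0.00259). In heme synthesis it was −0.90 ± 0.13 for Fech and −0.74 ± 0.14 for Slc25a39 (adjusted p 0.00431 and 0.0165). Among maturation and antioxidant genes it was −0.84 ± 0.16 for Bpgm, −0.87 ± 0.15 for Prdx2 and −0.77 ± 0.16 for Gclm (adjusted p 0.0180, 0.0133 and 0.0372).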

How the results depend on the processing

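All 107 alternative values of the 9 genes between the unstimulated genotypes were above 0, their median ran from 1.54 to 1.89 (1.73 with the replicate block), and no alternative called a member in stimulated cells. The count of further genes called in stimulated cells, 4, was 0 after quantile normalization, which is also the scale of the stimulation changes, and 0 to 1 with single arrays left out, and 6 with all probe sets of a gene averaged. Over all probe sets 839 were called, 683 after quantile normalization and 452 to 597 with single stimulated arrays left out. On the deposited values 59 further genes changed with stimulation in wild type and 62 in transgenic cells, against 52 and 57. The median stimulation change of the members was −1.51 in wild type cells and −3.11 in transgenic cells on the deposited values; in wild type cells it ran from −1.0 to −0.70 with single arrays left out, the last without unstimulated replicate 3. With single arrays left out, the stimulated genotype difference crossed 0 at Rhag (−0.067 to 0.030), Alas2 (−0.15 to 0.043), Ermap (−0.090 to 0.017), Car1 (−0.088 to 0.022) and Car2 (−0.020 to 0.16), none called. The following 3 values turned sign elsewhere: Tfrc between unstimulated genotypes (0.18 as the mean of its probe sets), and the wild type stimulation changes of Hbb-bh1 (−0.26 on deposited values, 0.34 otherwise) and Mpp1 (0.010 with array medians subtracted, −0.57 otherwise). The causes were not tested. The replicate block changed no other call named in the text than that of Slc25a37. Of the alternatives for single genes, 1231 kept direction and side of the threshold, 59 lost the call, 25 moved by more than the spread between replicates and 14 turned sign. Of the 12 member probe sets 10 lay below the median of every stimulated array, which limits what can be seen there.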
